A study of Homo sapiens with 6 samples.

Results

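The genes described here encode the machinery that imports proteins into mitochondria, as measured by RNA-Seq in K562, a human cell line established from a chronic myelogenous leukemia. The 37 genes were taken by name from a table of 19330 genes: 25 symbols that start with TOMM or TIMM, and 12 further symbols (PAM16, DNAJC19, GRPEL1, GRPEL2, SAMM50, MTX1, MTX2, CHCHD4, GFER, PMPCA, PMPCB and OXA1L). The rule uses names only and no measured value. Cells of both conditions were infected with lentivirus made from pLentiCRISPRv2, which delivers Cas9 and an sgRNA, were put under puromycin 48 h later for 48 h, and were analyzed at day 10 after infection. The 3 sgCtrl libraries carried sgRNAs against OR11A1 and OR2M49 by their labels, and the 3 sgN6AMT1 libraries carried sgRNAs against N6AMT1, which encodes a methyltransferase of the translation termination factor eRF1. Each library came from its own transduction, the methods describe no isolation of clones, and the sgRNA that a given library received is not given in the sources used here. The comparison asks whether the transcripts of the import machinery differed in abundance when N6AMT1 was depleted.

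Nearly all mitochondrial proteins are made in the cytosol and imported. Precursors pass the outer membrane through the TOM complex, in which receptors hand them to the TOMM40 pore. Outer membrane barrel proteins are then inserted by the SAM complex, and carrier proteins are escorted by the small TIM chaperones to the TIM22 complex of the inner membrane. Precursors with a presequence go through the TIM23 channel, are pulled into the matrix by an HSPA9-driven motor, and lose the presequence to the matrix processing peptidase. OXA1L inserts proteins into the inner membrane from the matrix side. The 37 genes were placed as 10 of TOM and its helpers, 3 of SAM, 1 of TIM22, 8 of the small TIMs and their disulfide relay, 6 of the TIM23 channel, 5 of its motor and 3 of processing and insertion. TIMMDC1 shares the name but is a complex I assembly factor, and was kept apart.

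The libraries were unequal in depth. The sgCtrl libraries held 742470 to 866894 counts, sgN6AMT1 replicate 1 held 959319, and sgN6AMT1 replicates 2 and 3 held 5526904 and 4062363. Levels are given as cpm, counts scaled to the library total for N6AMT1 and the marker sums, and to the TMM-normalized library size for all other genes. N6AMT1 was at 8.08 ± 2.31 cpm (SD, n = 3) in controls and at 2.40 ± 2.11 cpm (SD, n = 3) after depletion, without overlap (p = 0.1 by an exact two-sided permutation, which 3 libraries against 3 cannot go below). These levels rest on few counts, 6, 5 and 9 in sgCtrl and 0, 18 and 16 in sgN6AMT1. With DESeq2 the log2 fold change of N6AMT1 was -1.51, with an adjusted p of 0.227. All 10 markers of the erythroid K562 line were detected in every library, and their summed level ranged from 10786 to 17395 cpm among the control libraries, against 17178 to 31937 cpm among the depleted ones, most of it from the fetal globins HBG1 and HBG2. Without these globins the other 8 markers summed to 2268 to 2599 cpm in the controls and to 1937 to 1997 cpm after depletion, the opposite direction, and LMO2 was called lower (log2 fold change -1.01, adjusted p = 0.0239, edgeR). The 4 markers of other cell types reported here (CD3E, MS4A1, ALB and COL1A1) summed to 3.46 to 5.39 cpm in sgCtrl and 7.30 to 9.23 cpm in sgN6AMT1, with MS4A1 at 0 in all 6 libraries. The rise was mostly ALB, scaled to the library total at 0, 1.15 and 0 cpm in sgCtrl and 5.21, 5.79 and 4.92 cpm in sgN6AMT1. COL1A1 went the other way, at 5.39, 3.46 and 3.46 cpm against 2.08, 3.26 and 2.22 cpm. The part of these marker differences in the results was not tested. Lower abundance in bulk RNA cannot tell fewer expressing cells from less RNA per cell.

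The share of import genes called was close to the share over all genes tested, with calls in both directions. In sgN6AMT1 cells TOMM7, a small TOM subunit, TOMM34, a cytosolic co-chaperone of import, and PMPCB, the catalytic subunit of the processing peptidase, were higher, and TIMM21, which couples the TIM23 channel to its partners, was lower. These 4 genes were past an adjusted p of 0.05 among the 36 genes that passed the filter on low counts (edgeR quasi-likelihood test, Benjamini-Hochberg adjustment over all 8324 genes tested). That is 11.1% of the import genes tested, close to the 9.85% called among all genes tested. The 3 higher genes compare with 5.09% of all genes called higher, and the 1 lower gene with 4.76% called lower. Without adjustment 9 import genes had a p under 0.05, where 26.2% of all genes did. The conditions did not overlap in 10 of the 36 import genes (27.8%), 4 higher and 6 lower, against 29.2% of all genes tested.

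The import genes as a group showed no shift past the spread of the libraries. The log2 fold changes of sgN6AMT1 over sgCtrl had a median of 0.08 over the 36 import genes and 0.01 over all genes tested, with 21 above and 15 below 0 and a range from -0.77 to 0.94. Their summed TMM-normalized cpm was 3121 ± 150.2 (SD, n = 3) for sgCtrl against 3308 ± 109.3 (SD, n = 3) for sgN6AMT1, with overlap between the conditions. For 24 of the 32 genes not called, the 95% interval of the log2 fold change stayed between -1 and 1. For the other 8 it reached past one of these bounds, so that a change of that size is not excluded. Nearest to the threshold were PMPCB inside it, at an adjusted p of 0.0438, and TIMMDC1 outside it, at 0.0564 (both edgeR).

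**Figure D1:**
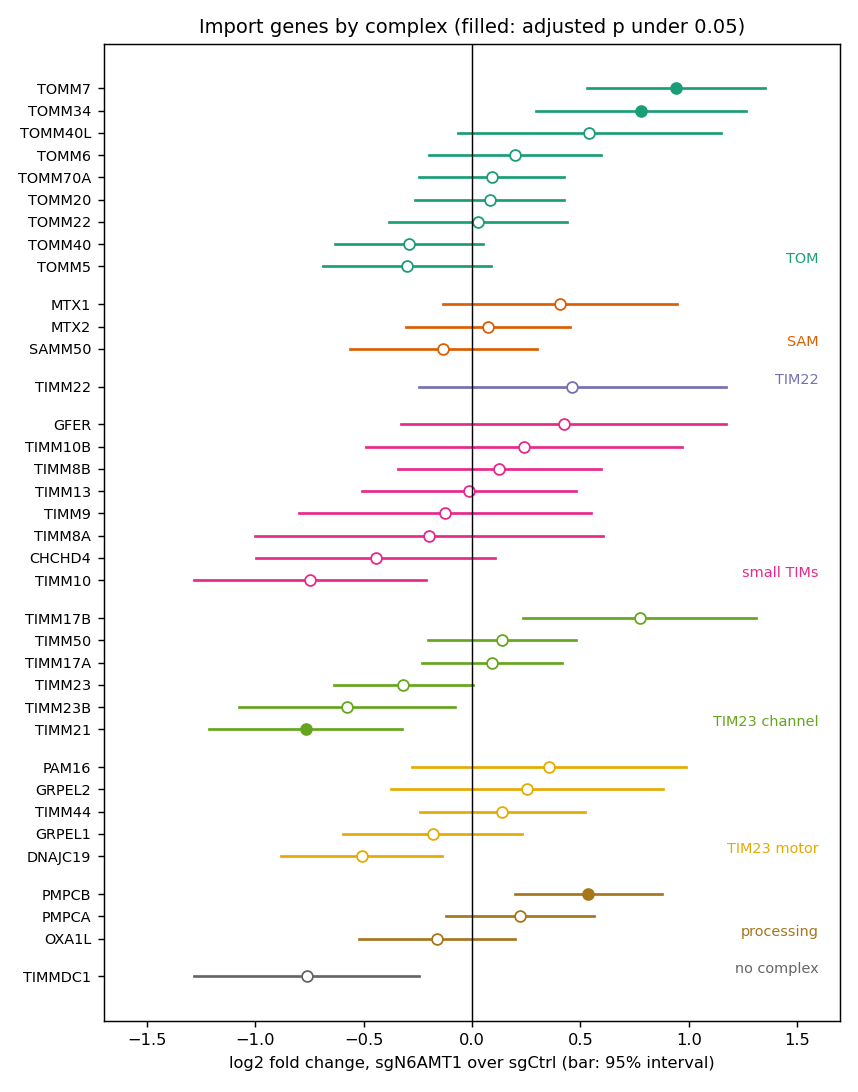
Log2 fold change of each of the 36 tested import genes, sgN6AMT1 over sgCtrl (x axis), with its 95% interval from the quasi-likelihood test as a bar, grouped and colored by complex; filled points are past an adjusted p of 0.05. TOMM7, TOMM34 and PMPCB lie to the right of 0 and TIMM21 to the left, and each group of 3 or more genes has genes on both sides.

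**Figure D2:**
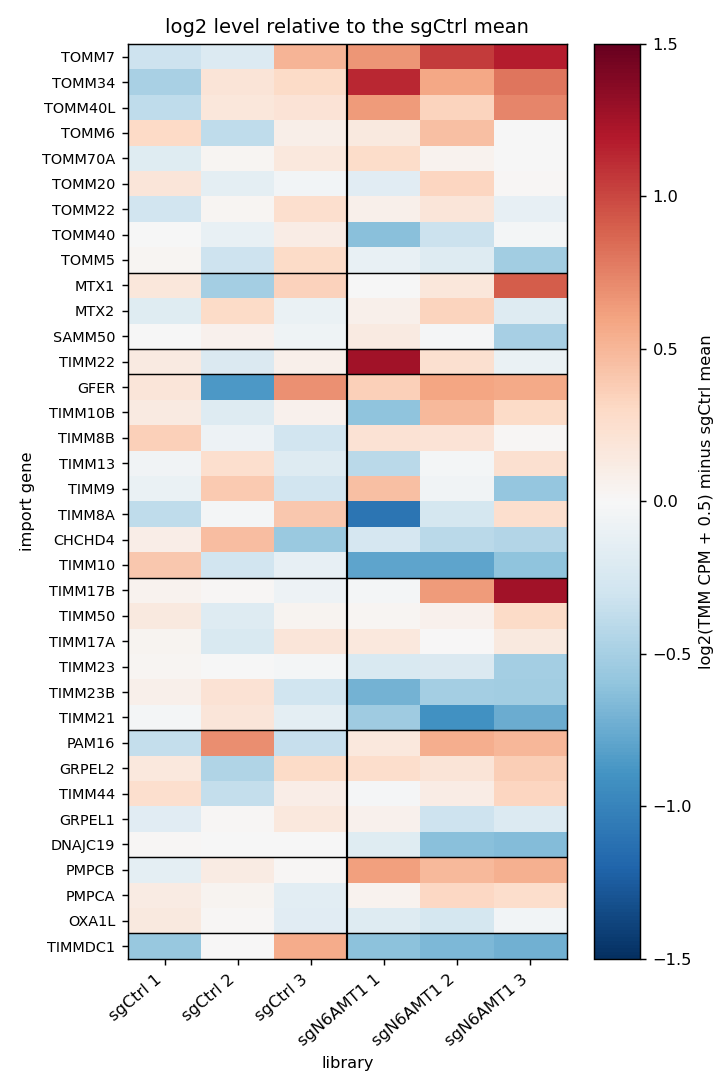
Level of each tested import gene (y axis, grouped by complex) in each of the 6 libraries (x axis), as log2(TMM-normalized cpm + 0.5) minus the mean of the 3 sgCtrl libraries. TOMM7, TOMM34 and PMPCB are higher and TIMM21 lower in all 3 sgN6AMT1 libraries, while TIMM22 is high in sgN6AMT1 replicate 1 alone and TIMM17B in replicates 2 and 3.

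The promoters of the 4 called genes are shown because these genes passed the threshold of the test. Each line gives the 250 bases before the RefSeq gene start (GRCh38.p14), on the strand of the gene, with any match to 3 searched motifs in capitals: an NRF1 site (GCGCATGCG or GCGCACGCG), an ETS site (CCGGAAG) and CCAAT, on either strand. The regions are chr7:22822850-22823099 on the minus strand for TOMM7, chr20:44960398-44960647 on the minus strand for TOMM34, chr7:103297185-103297434 on the plus strand for PMPCB and chr18:74148273-74148522 on the plus strand for TIMM21.
TOMM7: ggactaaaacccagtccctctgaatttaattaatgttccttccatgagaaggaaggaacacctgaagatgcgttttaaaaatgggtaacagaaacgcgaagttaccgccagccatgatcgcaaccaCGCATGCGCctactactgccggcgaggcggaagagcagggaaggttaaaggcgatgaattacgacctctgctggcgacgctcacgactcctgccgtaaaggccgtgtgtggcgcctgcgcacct
TOMM34: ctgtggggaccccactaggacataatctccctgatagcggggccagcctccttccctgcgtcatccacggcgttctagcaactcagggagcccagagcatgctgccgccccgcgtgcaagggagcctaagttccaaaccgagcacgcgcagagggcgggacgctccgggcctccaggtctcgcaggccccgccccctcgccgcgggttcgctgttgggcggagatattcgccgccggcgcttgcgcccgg
PMPCB: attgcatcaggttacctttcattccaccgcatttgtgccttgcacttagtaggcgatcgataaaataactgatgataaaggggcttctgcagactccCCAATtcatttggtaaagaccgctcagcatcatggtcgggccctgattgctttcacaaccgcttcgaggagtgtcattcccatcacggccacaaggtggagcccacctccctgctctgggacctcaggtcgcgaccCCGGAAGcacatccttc
TIMM21: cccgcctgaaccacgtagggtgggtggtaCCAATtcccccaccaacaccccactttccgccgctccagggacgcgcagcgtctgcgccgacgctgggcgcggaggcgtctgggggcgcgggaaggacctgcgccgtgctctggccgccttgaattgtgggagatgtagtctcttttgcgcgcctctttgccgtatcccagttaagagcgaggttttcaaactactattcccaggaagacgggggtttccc
The TOMM7 sequence held the NRF1 letters, starting 124 bases before the gene start, and no other searched motif. PMPCB held CCAAT and ETS letters, TIMM21 held CCAAT letters, and TOMM34 held no match in this window. Among the 34 import genes with a promoter entry, the NRF1 letters were in 4 (11.8%, against 3.48% of 27305 promoters), the ETS letters in 11 (32.4%, against 8.82%) and CCAAT in 11 (32.4%, against 33.0%). The 27305 promoters include those of genes not tested here, and the shares among tested genes alone were not computed. Genes with the ETS letters had a median log2 fold change of 0.08, from -0.76 to 0.54. PMPCB was the 1 called gene among these 11, against 9.85% called among all genes tested.

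TOMM7 had the largest change of the TOM genes. It is on chromosome 7 (22812628 to 22822849, minus strand, GENCODE v44 on GRCh38) and encodes a small subunit that takes part in TOM assembly and in the handling of PINK1 at the outer membrane. Its normalized level was 155, 166 and 272 cpm in sgCtrl and 302, 396 and 435 cpm in sgN6AMT1. All 3 sgN6AMT1 libraries were above all controls, with sgCtrl replicate 3 the nearest to them. The log2 fold change was 0.94 ± 0.20 (SE), or 1.92-fold, with an adjusted p of 0.00685 (edgeR). HBG1 was likewise highest among controls in sgCtrl replicate 3, at 4182, 4678 and 7873 cpm in sgCtrl and 7867, 10613 and 15983 cpm in sgN6AMT1, and its part in the TOMM7 result was not tested. None of the 375 windows of 60 bases in the TOMM7 transcript occurs in a transcript of another GENCODE gene. The adjusted p was 0.0505 without sgCtrl replicate 1 and 0.0683 without sgCtrl replicate 2.

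TOMM34 (chromosome 20, 44942130 to 44960397, minus strand) encodes a cytosolic protein that binds HSP70 and HSP90 and helps to hold precursors in an importable form. It was at 30.9, 49.6 and 53.1 cpm in sgCtrl and at 95.9, 65.0 and 75.8 cpm in sgN6AMT1. The conditions did not overlap, and the 3 sgCtrl libraries rest on 23, 43 and 45 counts. The log2 fold change was 0.78 ± 0.23 (SE) with an adjusted p of 0.0403 (edgeR). The call was lost with DESeq2 (adjusted p = 0.0601), with the GC and length correction (0.0891), with thinned counts (0.0692), and without sgCtrl replicate 1 (0.176), sgCtrl replicate 2 (0.108) or sgN6AMT1 replicate 1 (0.0853).

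The pore and the receptors of TOM did not pass the test. TOMM40, the pore, was at 263, 243 and 285 cpm in sgCtrl and 171, 210 and 259 cpm in sgN6AMT1, with a log2 fold change of -0.29 ± 0.16 (SE). Only sgN6AMT1 replicate 3 reached the control range. In TOMM40, 18.1% of the 60-base windows occur in another gene model. The adjusted p was 0.266, and 0.0139 with the GC and length correction (edgeR), where the log2 fold change was -0.53. Without sgN6AMT1 replicate 1 the log2 fold change was -0.17, with an adjusted p of 0.570 (edgeR). TOMM40L, a paralog of the pore, was at 14.8, 21.9 and 22.4 cpm against 30.6, 24.6 and 32.4 cpm, which did not overlap (log2 fold change 0.54 ± 0.29 SE, adjusted p = 0.246, edgeR). The receptors bind presequences (TOMM20 and TOMM22) or carrier precursors with their chaperones (TOMM70, listed under its older symbol TOMM70A). Their log2 fold changes were close to 0: 0.08 for TOMM20 (95% interval -0.26 to 0.42), 0.03 for TOMM22 (-0.38 to 0.44) and 0.09 for TOMM70 (-0.25 to 0.43). The small subunits TOMM5 and TOMM6 had values of -0.30 and 0.20, but share 71.3% and 100% of their 60-base windows with overlapping gene models, so their counts are uncertain. TOMM20L, a paralog of TOMM20, had no read in any library. For the shallowest library, 0 counts leave room for a level of 4.04 cpm (3 counts, counting error only).

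**Figure D3:**
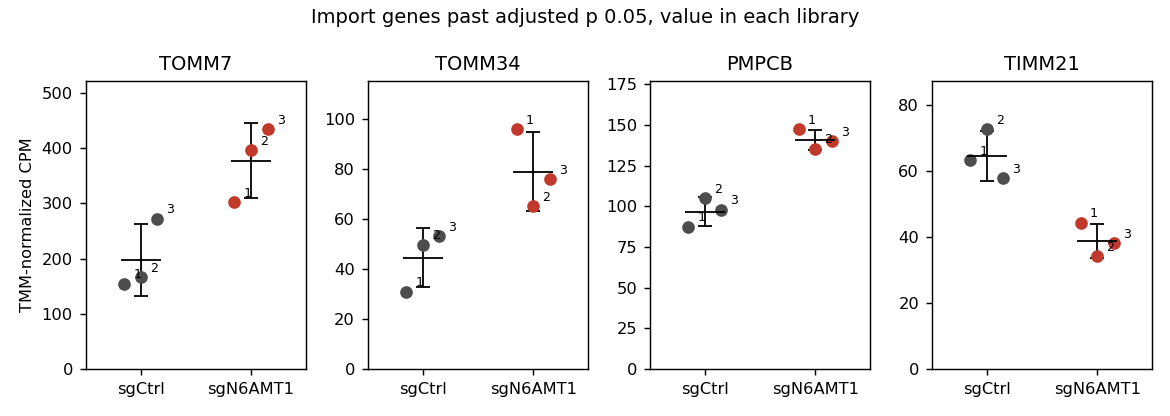
TMM-normalized cpm (y axes, each from 0) of the 4 import genes past the threshold in the 3 sgCtrl and 3 sgN6AMT1 libraries (points, numbered by replicate), with the mean and SD of each condition as a horizontal line and whiskers. The sgN6AMT1 points lie above the control points for TOMM7, TOMM34 and PMPCB and below them for TIMM21.

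None of the 3 SAM genes passed the test, where 9.85% of all genes tested did. SAMM50, the barrel that inserts other barrel proteins, was at 72.6, 76.1 and 69.6 cpm in sgCtrl and 80.1, 71.7 and 51.2 cpm in sgN6AMT1. MTX2, a metaxin on its cytosolic face, was at 117, 162 and 124 cpm against 140, 167 and 116 cpm. In both genes the sgN6AMT1 libraries lay on either side of the control range or inside it, and the log2 fold changes were -0.13 and 0.07, with 95% intervals of -0.56 to 0.30 and -0.30 to 0.45. The third, the metaxin MTX1, had a log2 fold change of 0.41 and an adjusted p of 0.335 (edgeR). The log2 fold change was 0.07 without sgN6AMT1 replicate 3, 0.17 without sgCtrl replicate 2 and 0.15 with the GC and length correction.

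The carrier pathway also held no called gene, against 9.85% called among all genes tested. TIMM22, the channel for carrier proteins, was at 28.2, 21.9 and 27.1 cpm in sgCtrl and 62.2, 30.3 and 23.9 cpm in sgN6AMT1, so that replicate 1 alone stood apart (log2 fold change 0.46 ± 0.34 SE, adjusted p = 0.413, edgeR). Without sgN6AMT1 replicate 1 the log2 fold change was 0.08.

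The 8 genes of the small TIMs and their relay had a median log2 fold change of -0.07, with 3 above and 5 below 0. TIMM9 and TIMM10 form the hexamer that escorts carriers across the intermembrane space. TIMM10 was at 56.4, 34.6 and 38.9 cpm in sgCtrl and 24.2, 24.3 and 27.8 cpm in sgN6AMT1. Each sgN6AMT1 library was below each control, with a log2 fold change of -0.75 ± 0.26 (SE) and an adjusted p of 0.0688, which fell under the threshold with the GC and length correction (0.0256, edgeR). Without sgCtrl replicate 1 the adjusted p was 0.288. Its partner TIMM9 was at 22.8, 32.3 and 20.0 cpm against 33.7, 23.7 and 16.2 cpm, which overlapped (log2 fold change -0.13, 95% interval -0.80 to 0.55). TIMM8A and TIMM13, which form the other hexamer, had log2 fold changes of -0.20 and -0.01. TIMM8A rests on 8, 12 and 16 counts in sgCtrl and 6 in sgN6AMT1 replicate 1. Cysteine-rich precursors such as the small TIMs are trapped by CHCHD4 (MIA40) and reoxidized through GFER (ALR). CHCHD4 had a log2 fold change of -0.45 (95% interval -0.996 to 0.10) and GFER one of 0.42 (-0.33 to 1.17), and in both the conditions overlapped. Without sgCtrl replicate 2 these values were -0.19 and 0.07.

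Of the 6 TIM23 channel genes, 1 passed the test, where 9.85% of all genes tested did. TIMM21 was called lower, TIMM17B and TIMM23B had values past 0.5 in opposite directions without passing the threshold, and TIMM17A and TIMM50 lay within 0.14 of 0. TIMM21 (chromosome 18, 74148523 to 74160531, plus strand) encodes a subunit that contacts TOM and respiratory chain complexes. It was at 63.2, 72.7 and 57.8 cpm in sgCtrl and 44.3, 34.1 and 38.0 cpm in sgN6AMT1. All 3 sgN6AMT1 libraries were lower than all controls, with a log2 fold change of -0.77 ± 0.21 (SE) and an adjusted p of 0.0292 (edgeR). The call was lost with thinned counts (0.0730) and without sgCtrl replicate 1 (0.0749), sgCtrl replicate 2 (0.149) or sgN6AMT1 replicate 2 (0.125).

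TIMM17A and TIMM17B are alternative partners of TIMM23 in the channel. TIMM17A was at 203, 167 and 224 cpm in sgCtrl and 220, 197 and 217 cpm in sgN6AMT1 (log2 fold change 0.09, 95% interval -0.23 to 0.42). TIMM17B was at 57.8, 56.5 and 53.1 cpm in sgCtrl and 54.8, 86.9 and 134 cpm in sgN6AMT1. Its replicate 1 lay inside the narrow control range and its replicates 2 and 3, the deep libraries, lay above it, for a log2 fold change of 0.77 ± 0.26 (SE) and an adjusted p of 0.0622 (edgeR). Without sgN6AMT1 replicate 1 the log2 fold change was 0.98 and the adjusted p 0.00642 (0.00643 with all libraries and no filter on low counts), and without replicate 3 the log2 fold change was 0.42. With the GC and length correction it was 0.52, with an adjusted p of 0.141 (edgeR). TIMM50, the receptor of the channel, was at 144, 113 and 133 cpm against 132, 136 and 159 cpm, which overlapped (log2 fold change 0.14).

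TIMM23, the channel itself, has a near-identical copy, TIMM23B, and both were lower without passing the threshold. Over the 514 coding bases compared, the genes differ at 10 and are 98.05% identical. The first 60 coding bases are shown to make clear how much a read of this length can tell the copies apart, with the differing bases in capitals (TIMM23 at chr10:45972625-45972684 and TIMM23B at chr10:49942195-49942254, both on the plus strand of GRCh38).
TIMM23: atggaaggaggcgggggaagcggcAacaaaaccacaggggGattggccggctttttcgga
TIMM23B: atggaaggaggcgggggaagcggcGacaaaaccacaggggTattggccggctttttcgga
Counting from the A of the start codon and giving the base of TIMM23 first, these differences are A25G and G41T. The longest run without a difference is 109 bases, and 13% of the 60-base windows of TIMM23 and 38.5% of those of TIMM23B occur in another gene model. TIMM23 was at 187, 181 and 179 cpm in sgCtrl and 156, 156 and 128 cpm in sgN6AMT1, and TIMM23B at 45.7, 50.8 and 35.4 cpm against 26.3, 30.5 and 30.1 cpm. In both genes each sgN6AMT1 library was below each control. The log2 fold changes were -0.32 ± 0.15 and -0.58 ± 0.24 (SE), with adjusted p of 0.196 and 0.130 (edgeR). Only TIMM23 fell under the threshold with the GC and length correction (adjusted p = 0.0498).

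In the motor, no gene of the list passed the test, where 9.85% of all genes tested did. HSPA9, the mitochondrial HSP70 that drives the motor and that the list does not include, was lower. HSPA9 was at 933, 896 and 936 cpm in sgCtrl and 653, 644 and 703 cpm in sgN6AMT1. The conditions were well separated, with a log2 fold change of -0.47 ± 0.14 (SE) and an adjusted p of 0.0432 (edgeR). The adjusted p was 0.0505 with the GC and length correction, 0.0542 with at least 10 counts asked of every library, and up to 0.161 when 1 library was left out, where the call was lost in 5 of 6 fits. The call was kept with DESeq2 (adjusted p = 0.0059), and in edgeR with a replicate block (0.0190) and with thinned counts (0.0436). DNAJC19, a J protein that stimulates HSPA9, was at 122, 120 and 120 cpm in sgCtrl and 106, 77.8 and 76.6 cpm in sgN6AMT1. It was lower in all 3 sgN6AMT1 libraries (log2 fold change -0.51 ± 0.18 SE, adjusted p = 0.0744, edgeR, and 0.0309 to 0.250 when 1 library was left out), and 11.4% of its 60-base windows recur in a pseudogene. TIMM44, which anchors HSPA9 at the channel, had a log2 fold change of 0.14 (95% interval -0.24 to 0.52). GRPEL1, the nucleotide exchange factor of HSPA9, was at 61.8, 70.4 and 77.8 cpm against 72.7, 56.0 and 60.4 cpm, which overlapped (log2 fold change -0.18, 95% interval -0.59 to 0.23). The remaining motor genes, PAM16 and GRPEL2, had log2 fold changes of 0.35 and 0.25. PAM16 shares 81.2% of its 60-base windows with an overlapping gene model, so its count is uncertain.

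Of the processing genes, 1 of 3 passed the test, where 9.85% of all genes tested did. PMPCB (chromosome 7, 103297407 to 103331818, plus strand) was at 87.3, 105 and 97.8 cpm in sgCtrl and 148, 135 and 140 cpm in sgN6AMT1. All 3 sgN6AMT1 libraries were above all controls and close together, with a log2 fold change of 0.54 ± 0.16 (SE) and an adjusted p of 0.0438 (edgeR). Its exons overlap those of DNAJC2 on the opposite strand and of PSMC2 on the same strand in the annotation, and how reads there were assigned is not given in the sources used here. The adjusted p rose to 0.0516 with total counts as library sizes, 0.0503 with thinned counts and 0.0857 with DESeq2, and to between 0.0594 and 0.156 when any 1 of the 6 libraries was left out, while the log2 fold change stayed between 0.47 and 0.59. PMPCA, the noncatalytic partner of PMPCB, was at 129, 122 and 106 cpm against 123, 147 and 142 cpm, which overlapped (log2 fold change 0.22, 95% interval -0.12 to 0.56). The difference between the changes of the partners was not tested. OXA1L had a log2 fold change of -0.16 (95% interval -0.52 to 0.20).

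TIMMDC1, the complex I assembly factor, was at 40.3, 59.99 and 88.4 cpm in sgCtrl and 39.0, 37.2 and 36.2 cpm in sgN6AMT1. The sgN6AMT1 libraries were within a few cpm of each other, and sgCtrl replicate 1 lay just above them. The log2 fold change was -0.76 ± 0.25 (SE) with an adjusted p of 0.0564 (edgeR). Without sgCtrl replicate 3 the log2 fold change was -0.44 with an adjusted p of 0.285, and the gene was not called in 5 of the 6 fits that left out 1 library. The adjusted p was 0.0332 without sgCtrl replicate 1, 0.0377 with the GC and length correction and 0.0184 without the filter on low counts.

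Scaled to transcript length, levels per kb of the canonical transcript ran from 4.89 (GRPEL2) to 455.4 (TOMM7) cpm per kb in sgCtrl and from 5.75 (TIMM10B) to 870.7 (TOMM7) cpm per kb in sgN6AMT1. TOMM7, with a transcript of 434 nt, held the highest level per kb in both conditions, at 455.4 ± 149.6 (SD, n = 3) and 870.7 ± 157 (SD, n = 3) cpm per kb. In sgCtrl it was followed by TOMM6 at 209.5 ± 48.2, TOMM5 at 179.5 ± 36.6, TIMM23 at 153 ± 3.31 and TOMM40 at 149.3 ± 11.8 cpm per kb. Among these 4, the gaps between neighbors were smaller than the larger of their SDs, whereas TIMM17A, the next gene, lay below TOMM40 by more than either SD. Among the pairs of partners, TIMM17A stood above TIMM17B in level per kb in sgCtrl (120.0 ± 17.4 against 68.2 ± 2.997). TIMM22, the carrier channel, was at 8.09 ± 1.06 cpm per kb, far below TIMM23.

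**Figure D4:**
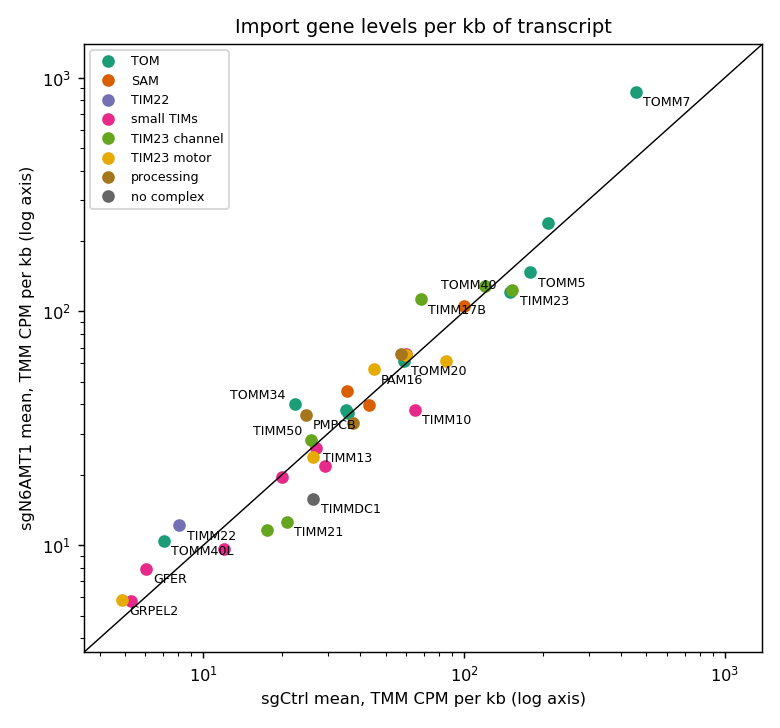
Mean level of each tested import gene in sgN6AMT1 (y axis) against sgCtrl (x axis), as TMM-normalized cpm per kb of the canonical transcript on log axes, colored by complex, with the line of equal levels. TOMM7 is highest at 455.4 and 870.7 cpm per kb, and most genes lie close to the line.

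Fold changes across the transcriptome moved with GC content, and some calls of import genes changed when this was corrected for. Tested genes with a GC value, without those encoded in mitochondrial DNA, were divided into 5 equal bins of transcript GC content (1630 genes each). The median log2 fold change was -0.14 in the lowest bin and 0.18 in the highest. The import genes spanned GC contents from 38.6% (GRPEL2) to 63.4% (MTX1). With a correction of each library for GC content and length, 7 import genes were called, 2 higher (TOMM7 and PMPCB) and 5 lower (TIMM21, TIMM10, TIMM23, TIMMDC1 and TOMM40), in place of 3 higher and 1 lower. Over all genes this correction called 11.4% of 8163. TOMM40, TIMM13 and MTX1, among the genes at over 62% GC, moved down by 0.24, 0.26 and 0.26 on the log2 scale, and PMPCB, at 38.7% GC, moved up by 0.13.

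**Figure D5:**
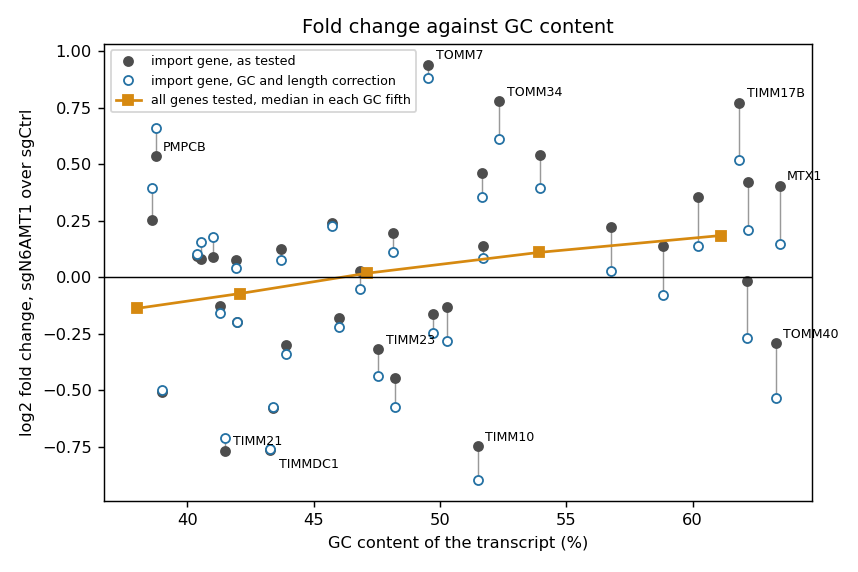
Log2 fold change (y axis) of the 36 tested import genes against the GC content of their transcript in percent (x axis), before (filled) and after (open) the correction for GC content and length. Squares give the median in 5 bins of GC content, over tested genes with a GC value and without genes encoded in mitochondrial DNA. The squares climb from -0.14 to 0.18, and the import genes of high GC content move down with the correction.

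Other genes of the import pathway were listed by hand. Of 22 such genes in the table, 20 were tested and HSPA9 alone was called (5.00%, against 9.85% of all genes). The remaining 19 had adjusted p of 0.0867 or more (edgeR). The lowest of these p was for HSPE1, the cochaperonin of matrix protein folding, at 325, 385 and 331 cpm in sgCtrl and 268, 298 and 149 cpm in sgN6AMT1. Its conditions did not overlap (log2 fold change -0.55 ± 0.20 SE). HSPD1, the chaperonin itself, had a log2 fold change of -0.23 (adjusted p = 0.367, edgeR). MIPEP, a peptidase that trims some presequence proteins further, had one of -0.74, the lowest of the list, with an adjusted p of 0.123 (edgeR). AGK, a TIM22 subunit, and ROMO1, a TIM23 subunit, had values of 0.32 and 0.53. MTX3, another metaxin, had 0 counts in all 6 libraries, and DNAJC15, a paralog of DNAJC19, had 4 to 42 counts and was not tested.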

How the data were processed

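RNA-Seq libraries of K562 cells, 3 sgCtrl and 3 sgN6AMT1, were grouped by their labels. Per the methods, stranded libraries from rRNA-depleted total RNA (the labels list polyA RNA) were sequenced, and the authors trimmed reads with cutadapt, mapped them with HISAT2 to GRCh38, overlapped them with a gene annotation and deposited raw counts per gene, without normalization. The counting tool and the treatment of reads with several matches are not given in the sources used here. The 37 members and all lists were chosen with earlier results of these data known. Genes were filtered (filterByExpr), scaled by TMM and tested with edgeR 4.0.16 (glmQLFit and glmQLFTest, R 4.3.3) over 6 libraries without covariates, at an adjusted p of 0.05 over 8324 genes. P-values rest on the spread between libraries. This spread holds transduction, counting error and any difference between sgRNAs, which cannot be told apart here. N6AMT1 cpm was compared by an exact permutation test. On simulated counts of this comparison (8292 genes), 95 of 95 genes with a log2 change of 2, 69 of 98 with a log2 change of 1 and 4 of 8099 unchanged genes were called. The simulation gave every gene the same dispersion (spread between libraries) and no GC trend. It therefore checks the fit and does not measure the power or the false calls of the real comparison. Alternatives were other size factors, filters and thresholds, DESeq2 1.42.0, a replicate block, a GC and length correction (8163 genes with values), thinning of sgN6AMT1 replicates 2 and 3 to 858710 counts, and each library left out. Genes were named if called, if central to a complex, or if among the 5 smallest p in each direction, and others are given by ranges or single values. Positions, lengths and shared 60-base windows come from GENCODE v44, promoters from RefSeq (GRCh38.p14), where 34 of the 37 members matched. MTCH1, which was on the list of other import genes, was not analysed here. One further marker of another cell type is not reported here.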

Additional observations from a re-analysis of the deposited data

How the results depend on the processing

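The percent of all genes called is given in parentheses beside each number of import genes called. Against 4 import genes called (9.85%) and a median log2 fold change of 0.08, the GC and length correction gave 7 calls (11.4%) and a median of 0.035, thinning of the deeper libraries gave 1 call (TOMM7, 7.90%) and 0.025, and DESeq2 gave 2 calls (TOMM7 and TIMM21, 6.70%). An unadjusted p of 0.05 gave 9 (26.2%). An adjusted p of 0.01 left 1 call, for which the percent of all genes was not computed. The samples share only a number: same-numbered libraries deviated with correlations of -0.00052, 0.083 and 0.19, and not every library correlated best with its own number. With a replicate block there were 7 calls (14.4%), TIMM17B, DNAJC19 and TIMMDC1 in addition, and with the block and the GC and length correction 8 calls (16.2%) and a median of 0.034. RLE size factors, total counts and normalization without the mt-DNA-encoded genes moved the number of calls by at most 1. Leaving out single libraries gave 0 (edgeR without sgCtrl replicate 2, 2.54%, where 10 had an unadjusted p under 0.05) to 4 calls (without sgN6AMT1 replicate 1, 11.2%) and a median of 0.012 to 0.10. Over the 36 import genes and HSPA9, 522 of 589 values under alternatives kept their direction and their side of the threshold, 29 lost a call, 17 gained one and 21 changed sign. Most of the 589 values belong to genes that had no call to lose. The 29 losses fell on PMPCB, TOMM34, HSPA9, TIMM21 and TOMM7 alone. With 1 library left out, TOMM7 kept its call in 4 of 6 fits, TOMM34 and TIMM21 in 3 each, HSPA9 in 1 and PMPCB in 0. No called gene changed sign. Uncalled genes did: TIMM13 was at 0.013 with at least 10 counts in every library, TIMM44 at -0.078 and TOMM22 at -0.051 with the GC and length correction (-0.059 and -0.065 with the block as well), and TIMM10B at -0.051 with thinned counts. Without single libraries MTX2 ranged from -0.078 to 0.22, SAMM50 from -0.24 to 0.041, TIMM13 from -0.17 to 0.11, TIMM17A from -0.025 to 0.19, TIMM44 from -0.031 to 0.26, TIMM8A from -0.53 to 0.034, TIMM8B from -0.012 to 0.31, TIMM9 from -0.32 to 0.11, TOMM20 from -0.064 to 0.17 and TOMM22 from -0.10 to 0.16. The cause was not tested. Without the filter on low counts 6 of 36 import genes were called (8.66%). The depth of the sgCtrl libraries limits the precision for the genes with the fewest counts, such as TIMM8A and GFER.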

Other observations

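Ratios of counts within a library do not depend on the scaling between libraries, and 14 ratios of import gene pairs were computed without a test. The values of the conditions overlapped in 10 of them, while 3 were higher and 1 lower in sgN6AMT1 without overlap. Each of the latter has TOMM40 or TIMM23 as denominator (log2 fold changes -0.29 and -0.32), and ratios with a shared denominator are not separate observations. The share without overlap among ratios of other genes was not computed, and among all single genes tested it was 29.2%. TOMM7 per TOMM40 was 0.587, 0.682 and 0.955 in sgCtrl and 1.77, 1.88 and 1.68 in sgN6AMT1. Raw counts do not rank transcripts of unlike length (434 and 1768 nt). Per kb, TOMM7 stood above TOMM40 already in sgCtrl, at 455.4 against 149.3 cpm per kb. TOMM40L per TOMM40 was also higher in every sgN6AMT1 library, at 0.0749 ± 0.0172 against 0.140 ± 0.0337 (mean ± SD, n = 3 each). TIMM22 per TIMM23 was 0.151, 0.121 and 0.151 in sgCtrl and 0.399, 0.194 and 0.186 in sgN6AMT1, with replicate 1 far from the others. TIMM21 per TIMM23 was lower in every sgN6AMT1 library, at 0.338, 0.401 and 0.322 against 0.284, 0.218 and 0.297. PMPCB per PMPCA, the subunits of the processing peptidase, went from 0.819 ± 0.127 to 1.03 ± 0.145, and TIMM17B per TIMM17A from 0.287 ± 0.0506 to 0.436 ± 0.185 (mean ± SD, n = 3 each), both with overlap.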
